A study of Mus musculus with 21 samples.

Results

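The 10 genes described here mark T cells, natural killer (NK) cells and innate lymphoid cells in fat: Cd3e, Cd3d, Cd3g, Cd4, Cd8a, Foxp3, Il7r, Gata3, Klrb1c and Nkg7. They were taken by symbol from a table of exon read counts for 38087 genes, and each symbol matched 1 gene. Of the 38087 genes, 18334 passed a filter on low counts and were tested, among them 9 of the 10 markers. Foxp3 did not pass the filter. The tissue was white fat from the epididymal depot, which lies beside the testis, of male C57BL/6j mice of 15 to 16 weeks. Mice were conventionally raised, with a gut microbiota, or germ-free, without one. All of them ate ad libitum. Tissue was taken every 4 h at zeitgeber times (ZT) 2, 6, 10, 14, 18 and 22, counted in hours from lights on. The conventional arm had 12 libraries, 2 per time. The germ-free arm had 9, with 2 each at ZT06, ZT10 and ZT22 and 1 each at ZT02, ZT14 and ZT18. A library is named below by its arm, its time and the number 1 or 2 in its title. The labels do not say which mouse each library came from, so p-values measure only the spread between these libraries, which may be technical.

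A T cell recognises peptide through a receptor whose signal is passed on by the CD3 chains, while the co-receptors CD4 and CD8 separate helper from cytotoxic cells. Regulatory T cells, which need the transcription factor FOXP3, and group 2 innate lymphoid cells, which need GATA3, are known residents of visceral fat and are linked to its metabolic state. IL-7, read through the receptor chain encoded by Il7r, keeps T cells and innate lymphoid cells alive, and NK cells of C57BL/6 mice carry the surface receptor NK1.1, encoded by Klrb1c.

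Total counts per library ran from 24388294 to 48348181. Levels are given as CPM, read counts relative to library size, with library sizes adjusted by TMM scaling. Adipocyte markers, which check the labelled tissue, summed to between 13364 and 20580 CPM in conventional libraries. In germ-free libraries they summed to between 15266 and 23877 CPM. Of 15 core clock genes, 13 were rhythmic in conventional and 14 in germ-free fat. Some libraries stood apart and bear on the markers. Both ZT02 libraries numbered 2, 1 in each arm, had Cd4 far above all others. Both germ-free ZT22 libraries carried transcripts of the neighbouring epididymis and accessory glands, at a summed 260.2 CPM in number 1 and 399.6 CPM in number 2, against a germ-free median of 10.9 CPM. Among conventional libraries the highest such sum was 1492 CPM, at ZT10 in number 2, and the median was 7.89 CPM. These high sums rest on different genes. Crisp1 was 0 CPM in conventional ZT10 number 2 and 390.6 CPM in germ-free ZT22 number 2. Svs2 and Svs4 reached at most 14526 and 17801 reads in a conventional library, and 47 and 29 reads in a germ-free one. Germ-free ZT22 number 1 also had the highest sum of ciliated duct markers, 624.9 CPM against a median of 29.5 CPM over all libraries. Genes of developing thymocytes were nearly absent: Ptcra reached at most 1 read in any library, Dntt 5 reads and Rag1 5 reads.

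All 10 markers were scarce. Per kilobase of exon, the scale on which genes can be compared, Nkg7 had the highest mean level, 1.26 ± 0.445 CPM per kb (SD, n = 21 libraries), followed by Cd3g at 0.954 ± 0.408 and Il7r at 0.805 ± 0.343 CPM per kb. Klrb1c came next at 0.569 ± 0.397 CPM per kb, then Cd4 at 0.439 ± 0.535, Cd3e at 0.410 ± 0.201 and Cd3d at 0.328 ± 0.132 CPM per kb. Cd8a and Gata3 were level with each other, at 0.163 ± 0.103 and 0.162 ± 0.0956 CPM per kb. Foxp3 was the lowest, at 0.0493 ± 0.0243 CPM per kb. Neighbours in this order differed by more than the SD of both only between Cd3d and Cd8a and between Gata3 and Foxp3. The first and the last place were held by the same genes in both arms, whereas Il7r ranked 2 in conventional and 4 in germ-free fat, and Klrb1c ranked 5 and 3. In bulk tissue, fewer cells of a type and less RNA per cell cannot be told apart.

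**Figure D1:**
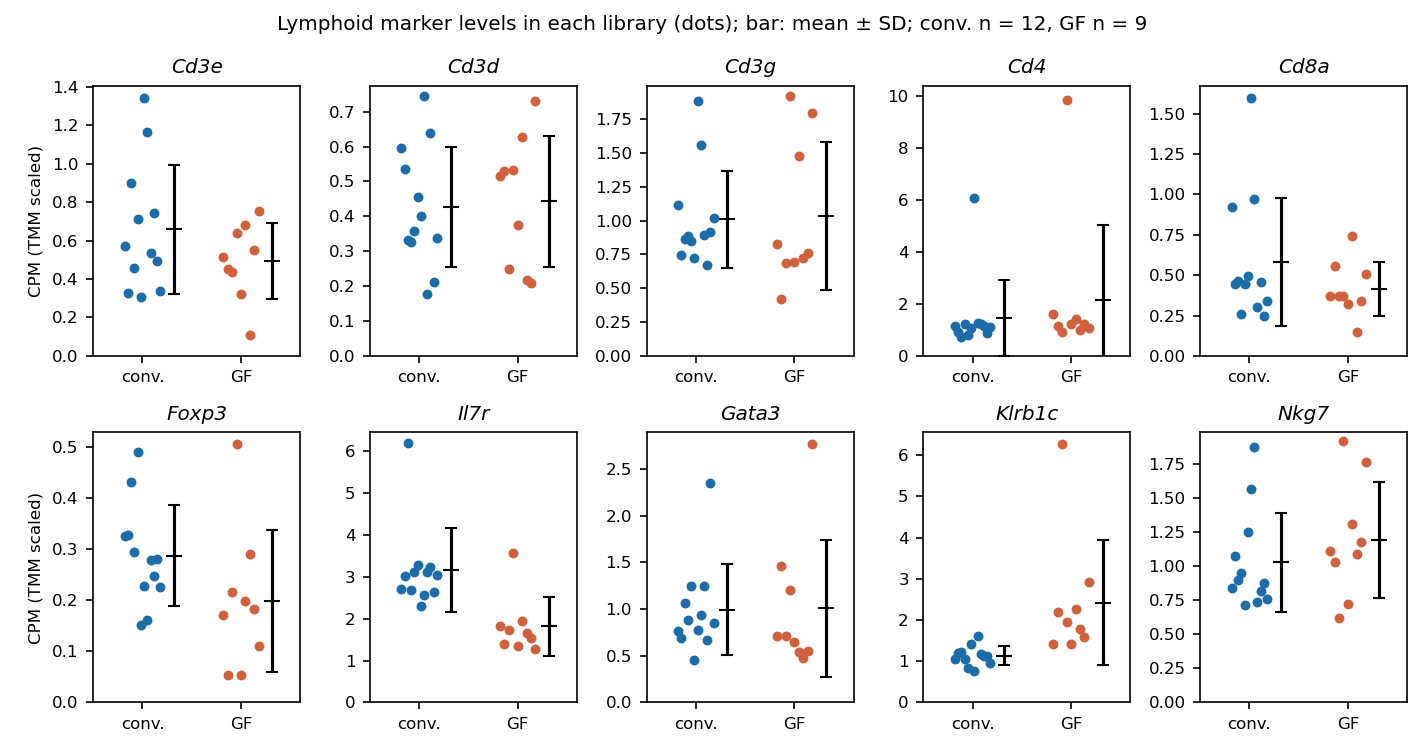
TMM-scaled CPM of the 10 lymphoid markers in each conventional (conv., n = 12) and germ-free (GF, n = 9) library, with the mean ± SD beside the dots. Each panel has its own axis from 0, which cuts off the lower end of the germ-free bar of Cd4. Il7r lies lower and Klrb1c higher in the germ-free libraries, and the arms overlap in all 10 panels.

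Between the arms, 2 of the 9 tested markers passed an adjusted p of 0.05 in edgeR's quasi-likelihood F test. Il7r fell and Klrb1c rose in germ-free fat. Over all genes, 26.9% passed this test, with 15.3% higher and 11.6% lower in germ-free fat, so that 2 of 9 is near the background share. The same shares are the background for the counts of listed genes below. The median log2 fold change, germ-free minus conventional, was 0.02 over the 9 markers and 0.03 over all genes tested. No marker had arms that did not overlap in CPM, a pattern seen in 0.665% of all genes tested.

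The invariant chains of the T cell receptor, Cd3e, Cd3d and Cd3g, pass its signal to the kinases inside the cell. All 3 genes lie together on mouse chromosome 9 (GRCm38): Cd3e at chr9:44998740-45009627 on the minus strand, Cd3d at chr9:44981786-44987339 on the plus strand and Cd3g at chr9:44969572-44980431 on the minus strand. Cd3g and Cd3d are read away from each other, with 1354 bases between their starts. The 250 bases before each of these starts are shown because the pair shares this short stretch of DNA, and neither window overlaps an annotated exon. Sequences are those of RefSeq promoters on GRCm38.p6, each 5′ to 3′ on its own gene's strand (Cd3g chr9:44980432-44980681, Cd3d chr9:44981536-44981785). Capitals mark matches, on either strand, to any of 6 motifs that were searched. The RUNX motif was spelled TGTGGT and the ETS motif AGGAAG. The GATA motif was spelled AGATAA and the E-protein box CACCTG. The clock E-box was spelled CACGTG and the ROR motif AGGTCA.
Cd3g: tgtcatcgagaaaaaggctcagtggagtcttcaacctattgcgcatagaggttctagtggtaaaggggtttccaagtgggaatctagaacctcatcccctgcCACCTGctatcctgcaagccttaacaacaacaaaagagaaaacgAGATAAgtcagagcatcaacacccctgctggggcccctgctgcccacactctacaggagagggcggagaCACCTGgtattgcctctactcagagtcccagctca
Cd3d: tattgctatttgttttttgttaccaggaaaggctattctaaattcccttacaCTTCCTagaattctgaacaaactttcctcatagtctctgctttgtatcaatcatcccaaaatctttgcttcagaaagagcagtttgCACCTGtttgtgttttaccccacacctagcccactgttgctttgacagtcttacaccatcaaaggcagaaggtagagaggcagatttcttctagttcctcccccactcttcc
The Cd3g window held 2 matches to the E-protein box and 1 to the GATA motif. The Cd3d window held 1 match to the E-protein box and 1 to the ETS motif, on the other strand. Neither window held the RUNX motif, the clock E-box or the ROR motif. Of 32851 RefSeq promoter windows of the same length, 17.2% hold the E-protein box, 29.5% the ETS motif, 9.99% the GATA motif, 14.05% the RUNX motif, 6.02% the clock E-box and 14.02% the ROR motif. A match is a description of letters, not evidence of binding. No motif overlapped another in these windows.

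No CD3 chain passed the test between the arms. Cd3e ranged from 0.304 CPM through a median of 0.552 to 1.34 CPM in conventional libraries, and from 0.109 through 0.514 to 0.753 CPM in germ-free libraries. Its 2 highest libraries were conventional, ZT02 number 2 and ZT06 number 2, and its lowest was the single germ-free ZT14 library, which held 3 reads. The log2 fold change of Cd3e was -0.38 ± 0.32 (SE, 95% interval -1.05 to 0.29, adjusted p 0.407). With 1 library left out it ran from -0.54, without germ-free ZT22 number 2, to -0.18, without conventional ZT06 number 2. Cd3d spanned 0.178 to 0.745 CPM in conventional fat, with a median of 0.378 CPM. In germ-free fat Cd3d spanned 0.210 to 0.730 CPM, with a median of 0.514 CPM. The arms covered nearly the same range, and the log2 fold change was 0.04 ± 0.27 (95% interval -0.54 to 0.61; adjusted p 0.946). Cd3g, the most abundant of the 3 per length, had a lowest, median and highest value of 0.674, 0.888 and 1.88 CPM in conventional libraries and of 0.424, 0.761 and 1.92 CPM in germ-free libraries. The highest library in each arm was ZT02 number 2. The log2 fold change of Cd3g was 0.02 ± 0.24 (95% interval -0.49 to 0.53; adjusted p 0.964). Its sign turned negative in some alternative fits, with a replicate block among them (-0.11, adjusted p 0.763).

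With all libraries, the genes that work beside the CD3 chains gave no call either. Of 22 listed genes for the T cell receptor complex and its signalling, 20 were tested, and none passed in either direction. Their median log2 fold change was 0.12, against 0.03 over all genes tested. The smallest p belonged to Trac, the constant region of the alpha chain, with means of 0.426 ± 0.175 CPM (SD) over the conventional and 0.665 ± 0.315 CPM over the germ-free libraries, a log2 fold change of 0.61 ± 0.25 and an adjusted p of 0.0799. It was followed by Lcp2, an adaptor protein downstream of the receptor, with a log2 fold change of -0.33 ± 0.14 and an adjusted p of 0.0859. Without germ-free ZT02 number 2, Lcp2 was at -0.51 and passed (adjusted p 0.00227), as it did without conventional ZT02 number 1 (0.00888) and in 5 of 35 alternatives in all. Trac passed without conventional ZT06 number 2 (0.81, adjusted p 0.0133) or without germ-free ZT06 number 2 (0.71, adjusted p 0.0386). Among 9 transcription factors of the T lineage, 1 rose, 1 fell and 7 did not pass. Runx3, a factor of CD8 T cells and innate lymphocytes, went from 1.05 ± 0.178 CPM in conventional down to 0.639 ± 0.127 CPM in germ-free fat, a fall with a log2 fold change of -0.70 ± 0.13 (adjusted p 0.00114). Ets1, which is also made by endothelial cells, rose from 80.5 ± 8.85 to 99.7 ± 17.3 CPM (0.28 ± 0.08, adjusted p 0.0206). Ets1 lost its call in 5 of 35 alternatives, among them without germ-free ZT10 number 2 (adjusted p 0.0503), without germ-free ZT22 number 2 (0.0555) and without both ZT02 libraries numbered 2 (0.0807). Runx3 lost its call with a covariate for how each library's deviations follow exon length (-0.49, adjusted p 0.133), and in the libraries numbered 1 alone (-0.46, adjusted p 0.532). Bcl11b and Ikzf3, T cell factors with the smallest p among those that did not pass, had log2 fold changes of -0.35 ± 0.21 and -0.20 ± 0.20.

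Of the co-receptors, Cd4 (chr6:124864692-124888221, minus strand) was set apart by a pair of libraries. It lay between 0.733 and 1.26 CPM in 11 conventional libraries and reached 6.08 CPM (213 reads) in conventional ZT02 number 2. In germ-free fat it lay between 0.932 and 1.601 CPM in 8 libraries and reached 9.86 CPM (370 reads) in ZT02 number 2. The conventional ZT02 library numbered 1 had 1.14 CPM, within the range of the others. With all libraries the log2 fold change between the arms was 0.39 ± 0.25 (95% interval -0.13 to 0.91; adjusted p 0.261). Without both ZT02 libraries numbered 2 it was 0.18 (adjusted p 0.417).

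The 3 genes outside the markers whose log2 CPM followed Cd4 most closely, by Pearson's r over the 21 libraries among 13137 genes, were Ttn (r = 0.93), the giant protein of the muscle sarcomere, Cxcl13 (r = 0.86), a chemokine that draws B cells, and H2-Eb1 (r = 0.84), an MHC class II chain. These values rest on the same pair of libraries. In the conventional library of the pair Ttn was 67.5 CPM, and in the germ-free one 60.1 CPM, against conventional and germ-free medians of 2.97 and 2.27 CPM. Cxcl13 stood at 86.2 and 36.5 CPM there, against medians of 2.84 and 2.63 CPM. Ciliated duct markers summed to 256.7 CPM in the conventional library of the pair and to 19.0 CPM in the germ-free one, so they were high in only 1 of them. The pair stood out less in the CD3 chains: Cd3g was 1.88 and 1.92 CPM there, and Cd3e was 1.34 and 0.640 CPM. Whether other tissue in these pieces of fat carried the Cd4 reads was not tested.

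**Figure D2:**
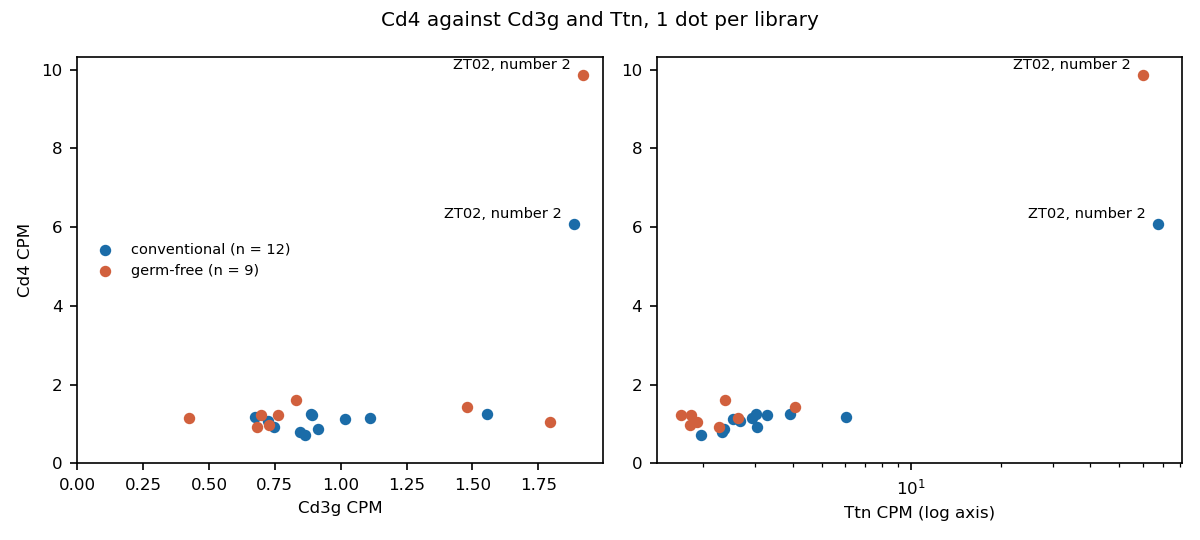
Cd4 CPM against Cd3g CPM (left) and against Ttn CPM on a log axis (right), with 1 dot per library and the arms in colour. The 2 libraries at ZT02 numbered 2 stand at 6.08 and 9.86 CPM of Cd4 and above 60 CPM of Ttn, while all others lie at or below 1.601 CPM of Cd4.

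Cd8a (chr6:71373427-71379173, plus strand), a chain of the co-receptor of cytotoxic T cells, ranged from 0.246 CPM through a median of 0.454 to 1.599 CPM in conventional libraries and from 0.145 through 0.373 to 0.740 CPM in germ-free libraries. The 3 highest libraries were conventional, at ZT02 and ZT06. The log2 fold change of -0.39 ± 0.29 did not pass (95% interval -1.01 to 0.22, adjusted p 0.345). With 1 library left out it ran from -0.54, without conventional ZT10 number 2, to -0.18, without germ-free ZT02 number 2. Unlike Cd4, Cd8a was not high in germ-free ZT02 number 2, which had 0.373 CPM.

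Foxp3 (chrX:7573644-7595245, plus strand), the transcription factor of regulatory T cells, gave 4 to 13 reads in conventional libraries, with a median of 8.5, and 2 to 19 reads in germ-free libraries, with a median of 7. In CPM it ran from 0.152 through 0.281 to 0.490 in conventional and from 0.0530 through 0.184 to 0.507 in germ-free fat. Of the 9 germ-free libraries, 7 lay below the conventional median, and the highest of all 21 was germ-free ZT02 number 2. Mean log2 CPM was lower in germ-free fat by 0.55 (log2 difference -0.55 with a prior count of 2), and a 2-sided exact permutation test over all 5832 relabellings of the arms within times gave p = 0.0518. With a prior count of 0.5 the difference was -0.70 and the exact p was 0.0475, so this call depends on the prior count at so few reads. Foxp3 overlaps Ppp1r3f and Ccdc22 on the other strand, with 13822 and 11340 reads over all libraries, and the RNA gene Flicr on its own strand, with 102. No source used here states whether the counting used strand, and without strand the reads of these genes cannot be told apart where they overlap.

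Among 8 listed regulatory T cell genes, 6 were tested, of which 1 fell and 5 did not pass. Their median log2 fold change was -0.20, against 0.03 over all genes tested. Il2ra, the high-affinity chain of the IL-2 receptor, which activated T cells and group 2 innate lymphoid cells also carry, fell from 3.42 ± 0.908 to 2.13 ± 0.558 CPM (-0.64 ± 0.16, adjusted p 0.00789). With the exon length covariate it was at -0.48 and did not pass (adjusted p 0.247), nor did it in the libraries numbered 1 (-0.81, adjusted p 0.319) or numbered 2 alone (-0.49, adjusted p 0.204). Ikzf2, which encodes Helios, missed the threshold at a log2 fold change of -0.17 ± 0.06 (adjusted p 0.0524), and so did Tnfrsf4, which encodes OX40, at -0.54 ± 0.21 (adjusted p 0.0597). Both lie close to the threshold: Ikzf2 passed in 12 and Tnfrsf4 in 6 of 35 alternatives, 6 and 3 of which left out a single library. Ikzf2 had a mean of 25.2 CPM in conventional fat, against 0.2875 CPM for Foxp3, and which cells carried the Ikzf2 reads was not tested. Il10 and Ccr8 had too few reads to be tested, at most 26 and 12 in any library.

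Il7r (chr15:9505788-9530176, minus strand), the IL-7 receptor alpha chain, was lower in germ-free fat. Conventional libraries ran from 2.31 CPM through a median of 3.03 to 6.19 CPM, and germ-free libraries from 1.28 through 1.67 to 3.57 CPM. Of the 9 germ-free libraries, 8 lay below the lowest conventional one. The exception was ZT02 number 2, at 3.57 CPM, and the highest conventional value was ZT10 number 1. The mean fell from 3.16 ± 1.0015 CPM (SD, n = 12) to 1.81 ± 0.696 CPM (n = 9), a log2 fold change of -0.81 ± 0.19 (95% interval -1.22 to -0.41; adjusted p 0.00561), and at 5 of 6 times the germ-free mean was the lower one. Leaving out any 1 of the 21 libraries kept the call, with log2 fold changes from -1.04 to -0.68. The libraries numbered 1 alone gave -1.27 (adjusted p 0.273) and those numbered 2 alone gave -0.66 (adjusted p 0.141), the same direction without a call in the smaller sets.

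The arms also differed in how a library's deviations follow exon length (Spearman's rho across genes within a library, 0.0844 ± 0.0848 in conventional and -0.112 ± 0.133 in germ-free libraries). With this value as a covariate Il7r was at -0.77 and no longer passed (adjusted p 0.151), while the calls over all genes went from 4928 to 615. The genes most like Il7r over the 21 libraries were Pik3r5 (r = 0.93), a regulatory subunit of a leukocyte PI3 kinase, Plekhm3 (r = 0.92) and Gpsm3 (r = 0.90). Pik3r5 was itself lower in germ-free fat (-0.57 ± 0.18, adjusted p 0.0250), which enters an r over both arms. It had the same single germ-free exception, ZT02 number 2 at 14.1 CPM against a germ-free median of 5.88 CPM. For comparison with the 11.6% of all genes that were lower, of 7 listed genes shared by all leukocytes 3 fell and 4 did not pass, their median being -0.13 on the log2 scale, and of 13 macrophage and dendritic cell genes 3 fell and 10 did not pass, their median being -0.20. Ptprc, which encodes CD45, did not pass (-0.11 ± 0.09, adjusted p 0.372). The part of other leukocytes in the Il7r result was not tested.

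The ligand of the receptor did not pass. Il7 is in a list of 20 cytokines, chemokines and receptors that feed or place lymphoid cells, of which 16 were tested, 3 rose, none fell and 13 did not pass, with a median of 0.02. Il7 itself was at -0.04 (log2, adjusted p 0.829), and Il33, an alarmin that acts on group 2 innate lymphoid cells, at 0.06 (adjusted p 0.724). Both were chosen for their roles after the values were seen. The 3 that rose were Stat5a, which acts below the IL-2 and IL-7 receptors (0.30 ± 0.06, adjusted p 0.00185), S1pr1, which lets lymphocytes leave tissue and is abundant in vessels (0.45 ± 0.11, adjusted p 0.00590), and Cxcr3, a chemokine receptor of activated T and NK cells. Cxcr3 rose from 1.45 ± 0.303 to 2.00 ± 0.376 CPM (0.48 ± 0.12, adjusted p 0.00990). With the exon length covariate none of the 3 passed, at adjusted p of 0.0809 for Stat5a, 0.0642 for S1pr1 and 0.178 for Cxcr3, and none passed over ZT06, ZT10 and ZT22 alone (0.0941, 0.0530 and 0.153) or in the libraries numbered 1 alone. In those numbered 2 alone, Cxcr3 did not pass (0.216). Jak3, the kinase bound to the common cytokine receptor chain, and Il15, a survival factor of NK cells, did not pass at 0.22 ± 0.08 and -0.15 ± 0.07. Jak3 passed without conventional ZT10 number 1 (adjusted p 0.0405) or conventional ZT18 number 1 (0.0161) and with the exon length covariate (0.41, adjusted p 0.0357), and Il15 passed without conventional ZT14 number 1 (0.0387).

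Gata3 (chr2:9857078-9890034, minus strand), needed by type 2 helper T cells and group 2 innate lymphoid cells and also made by epithelia and fat precursors, had the same mean in both arms within its spread. Conventional libraries ran from 0.456 CPM through 0.867 to 2.35 CPM, and germ-free libraries from 0.472 through 0.714 to 2.77 CPM. A single library stood high in each arm: conventional ZT18 number 2 with 67 reads and germ-free ZT22 number 2 with 125 reads. The log2 fold change was 0.01 ± 0.34 (95% interval -0.72 to 0.73; adjusted p 0.993). Without both germ-free ZT22 libraries it was -0.36 (adjusted p 0.384). The genes most like Gata3 were Ptgs2 (r = 0.83), a prostaglandin synthase, and Akr1b7 (r = 0.76), an aldo-keto reductase, followed by Spire1 (r = 0.71).

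Both leading genes were high in the same libraries as Gata3, and also in germ-free ZT10 number 1, where Gata3 was 1.46 CPM, Akr1b7 39.5 CPM and Ptgs2 11.7 CPM. Akr1b7 stood at 963 CPM in germ-free ZT22 number 2 and at 55.8 CPM in conventional ZT18 number 2, against germ-free and conventional medians of 0.839 and 0.622 CPM. Ptgs2 stood at 139.9 and 19.2 CPM there. Germ-free ZT22 number 2 had the highest epididymis and accessory gland sum of its arm. In conventional fat the highest such sum, 1492 CPM at ZT10 in number 2, came with 1.25 CPM of Gata3 and the lowest Akr1b7 of its arm, 0.0255 CPM. These 2 sums rest on different genes and cannot be compared as the same tissue. Crisp1 was 390.6 CPM in germ-free ZT22 number 2 and 0 CPM in conventional ZT10 number 2. Conventional ZT18 number 2 had the highest duct and basal epithelium sum of its arm, 337.2 CPM. The highest of all, 490.3 CPM in germ-free ZT22 number 1, came with the germ-free median of Gata3, 0.714 CPM, and of Akr1b7, 0.839 CPM.

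Of 10 listed genes of group 2 innate lymphoid cells, 6 were tested, of which 1 rose and 5 did not pass, with a median log2 fold change of 0.10. The one that rose, Rora, is made by many cell types and had a mean of 122.2 ± 19.0 CPM in the conventional and 139.5 ± 30.1 CPM in the germ-free arm (0.16 ± 0.05, adjusted p 0.0342). Rora lost its call in 12 of 21 fits that left out 1 library. Il1rl1, the IL-33 receptor, did not pass with all libraries (-0.27 ± 0.12, adjusted p 0.0992), and neither did Il9r (0.16 ± 0.21). Without germ-free ZT02 number 2, Il1rl1 was at -0.44 and passed (adjusted p 0.000298). It passed in 7 of 35 alternatives, among them without either conventional ZT02 library (adjusted p 0.0476 without number 1 and 0.0357 without number 2), without both ZT02 libraries numbered 2 (-0.45, adjusted p 0.000379) and over ZT06, ZT10 and ZT22 alone (-0.56, adjusted p 0.00257). Il5 and Il13, the cytokines these cells are known for, reached at most 6 and 4 reads in any library.

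Klrb1c (chr6:128778485-128789215, minus strand), the NK1.1 antigen, was higher in germ-free fat. Conventional libraries ran from 0.771 CPM through a median of 1.13 to 1.62 CPM, and germ-free libraries from 1.42 through 1.95 to 6.27 CPM. All 9 germ-free libraries lay above the conventional median and 6 lay above the highest conventional library. At all 6 times the germ-free mean was the higher one. The mean rose from 1.13 ± 0.230 CPM (SD, n = 12) to 2.42 ± 1.52 CPM (n = 9), a log2 fold change of 0.90 ± 0.20 (95% interval 0.47 to 1.33; adjusted p 0.00416).

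The 2 highest Klrb1c values were both germ-free ZT22 libraries, with 202 reads (6.27 CPM) in number 1 and 132 reads (2.92 CPM) in number 2. These are the germ-free libraries with the highest epididymis and accessory gland sums, 260.2 and 399.6 CPM. Conventional ZT10 number 2, with 1492 CPM of those markers, had 1.17 CPM of Klrb1c, near its arm's median. These sums rest on different genes and cannot be compared as the same tissue, and this holds between the 2 germ-free ZT22 libraries as well. Crisp1 was 0 CPM in conventional ZT10 number 2 and 390.6 CPM in germ-free ZT22 number 2. In every other germ-free library, ZT22 number 1 among them, Crisp1 was at most 24.7 CPM. Without both germ-free ZT22 libraries the log2 fold change of Klrb1c was 0.64 (adjusted p 0.00884). Leaving out any 1 of the 21 libraries kept the call, with values from 0.74 to 0.99. The libraries numbered 1 alone gave 1.08 (adjusted p 0.386) and those numbered 2 alone 0.81 (adjusted p 0.0938). With the exon length covariate the value was 1.08 and its adjusted p 0.0514. Over ZT06, ZT10 and ZT22 alone, where both arms had 2 libraries, it was 0.94 with an adjusted p of 0.0792.

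Klrb1c has close relatives beside it on chromosome 6, and reads that fit several of them may be shared out or dropped by the counting, whose treatment of such reads no source used here states. Over aligned coding bases Klrb1c is identical to Klrb1a at 92.4% of 685, to Klrb1b at 85.7% of 666 and to Klrb1f at 69.0% of 651. The stretch below covers coding bases 523 to 582 of the 813 of Klrb1c (GENCODE M21, GRCm38). It was chosen as the window of 60 aligned bases without gaps where the 4 genes are most alike, with 47 columns the same in all. Klrb1c and Klrb1b are spelled alike throughout it. A read of 100 bases reaches beyond these 60. Capitals mark columns where the 4 genes are not all alike. Against Klrb1c there are 0 differing bases in Klrb1b, 1 in Klrb1a and 13 in Klrb1f.
Klrb1c: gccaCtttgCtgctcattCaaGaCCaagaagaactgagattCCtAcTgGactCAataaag
Klrb1a: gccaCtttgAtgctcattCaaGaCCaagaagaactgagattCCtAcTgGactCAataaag
Klrb1b: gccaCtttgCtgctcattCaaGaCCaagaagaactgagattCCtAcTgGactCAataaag
Klrb1f: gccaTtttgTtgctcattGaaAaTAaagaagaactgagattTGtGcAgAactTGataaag
Of 1609 windows of 50 bases in the Klrb1c transcript with the longest coding sequence, 478 (29.7%) occur unchanged in a transcript of another gene. Only 148 (9.2%) do so once Gm44511 is set aside, a gene model that overlaps Klrb1c on the same strand and has no counts here. At the read length of 100 bases these shares were 21.2% and 0.577%, and the genes that share such windows were Gm44511 and Klrb1a, not Klrb1b.

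None of the relatives passed the test. Log2 fold changes were -0.17 ± 0.29 for Klrb1a, -0.05 ± 0.15 for Klrb1b and -0.25 ± 0.33 for Klrb1f, with adjusted p of 0.725, 0.860 and 0.633. Klrb1a was at its highest in germ-free ZT22 number 1 as well, 1.12 CPM against a germ-free median of 0.291 CPM. Klrb1b, the inhibitory member, had its lowest germ-free value in that library, 0.652 CPM. Summed over the 4 genes, the log2 fold change was 0.37 and did not pass (adjusted p 0.0680). The genes most like Klrb1c over the libraries were Cox7a2l (r = 0.83), a factor of mitochondrial respiratory supercomplexes, Ssbp1 (r = 0.82), a mitochondrial DNA-binding protein, and the small nucleolar RNA Snora21 (r = 0.81), none of which is an NK gene. These r span both arms, so a difference between the arms enters them. Cox7a2l was itself higher in germ-free fat (0.19 ± 0.04, adjusted p 0.00146) and highest in germ-free ZT22 number 1, at 106.4 CPM. The r values do not say which cells carried Klrb1c.

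**Figure D3:**
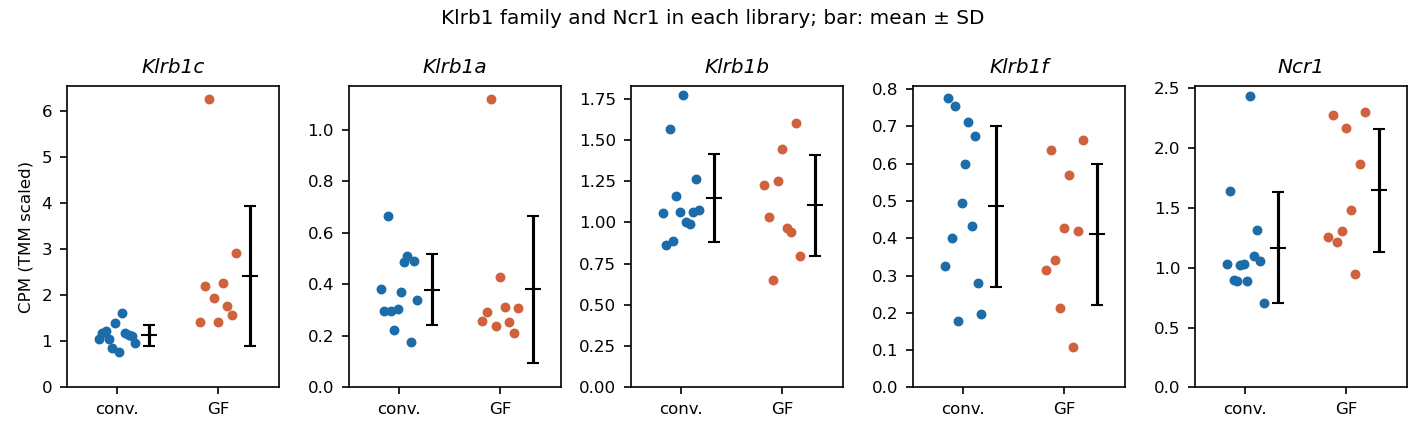
TMM-scaled CPM of Klrb1c, its relatives Klrb1a, Klrb1b and Klrb1f, and the NK receptor gene Ncr1 in each conventional (conv., n = 12) and germ-free (GF, n = 9) library, with the mean ± SD. Klrb1c is higher in germ-free libraries, with the top dot at 6.27 CPM, while the 3 relatives overlap between the arms over most of their range.

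Nkg7 (chr7:43437073-43438249, plus strand), a membrane protein of the granules of cytotoxic lymphocytes, ranged from 0.713 CPM through 0.888 to 1.88 CPM in conventional and from 0.621 through 1.11 to 1.92 CPM in germ-free libraries. At 5 of 6 times the germ-free mean was the higher one, and 7 of 9 germ-free libraries lay above the conventional median. The log2 fold change of 0.23 ± 0.22 did not pass (95% interval -0.23 to 0.69, adjusted p 0.475). With 1 library left out it ran from 0.10, without germ-free ZT22 number 2, to 0.35, without conventional ZT06 number 2. Unlike Klrb1c, Nkg7 was at its lowest in germ-free ZT22 number 1. Its closest genes were Ccl5 (r = 0.84), a chemokine of cytotoxic lymphocytes, Il2rb (r = 0.77), the beta chain of the IL-2 and IL-15 receptors, and the interferon-induced Gbp6 (r = 0.77).

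The other NK and cytotoxic genes gave 1 call. Of 17 listed, 15 were tested, 1 rose and 14 did not pass, while 15.3% of all genes tested were higher in germ-free fat. All 15 had a log2 fold change above 0, with a median of 0.27 against 0.03 over all genes tested. They were measured in the same 21 libraries, so their signs are not 15 separate observations. Il2rb rose from 3.79 ± 1.18 to 5.25 ± 1.30 CPM (0.48 ± 0.16, adjusted p 0.0313), but lost its call with a replicate block (0.41, adjusted p 0.0557) and in 10 of 21 fits that left out 1 library, with values of 0.40 to 0.59. Ncr1, which encodes the NK receptor NKp46, had arm means of 1.17 ± 0.463 and 1.65 ± 0.515 CPM and did not pass (0.49 ± 0.20, adjusted p 0.0797), except without conventional ZT06 number 2 (adjusted p 0.0364) or germ-free ZT06 number 1 (0.0341). Klrk1, which encodes NKG2D, did not pass either (0.25 ± 0.11, adjusted p 0.107), except without conventional ZT02 number 2 (0.0372). Ncr1 was not high in germ-free ZT22 number 1, where Klrb1c peaked: it stood there at 1.21 CPM, below its germ-free median of 1.48 CPM.

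**Figure D4:**
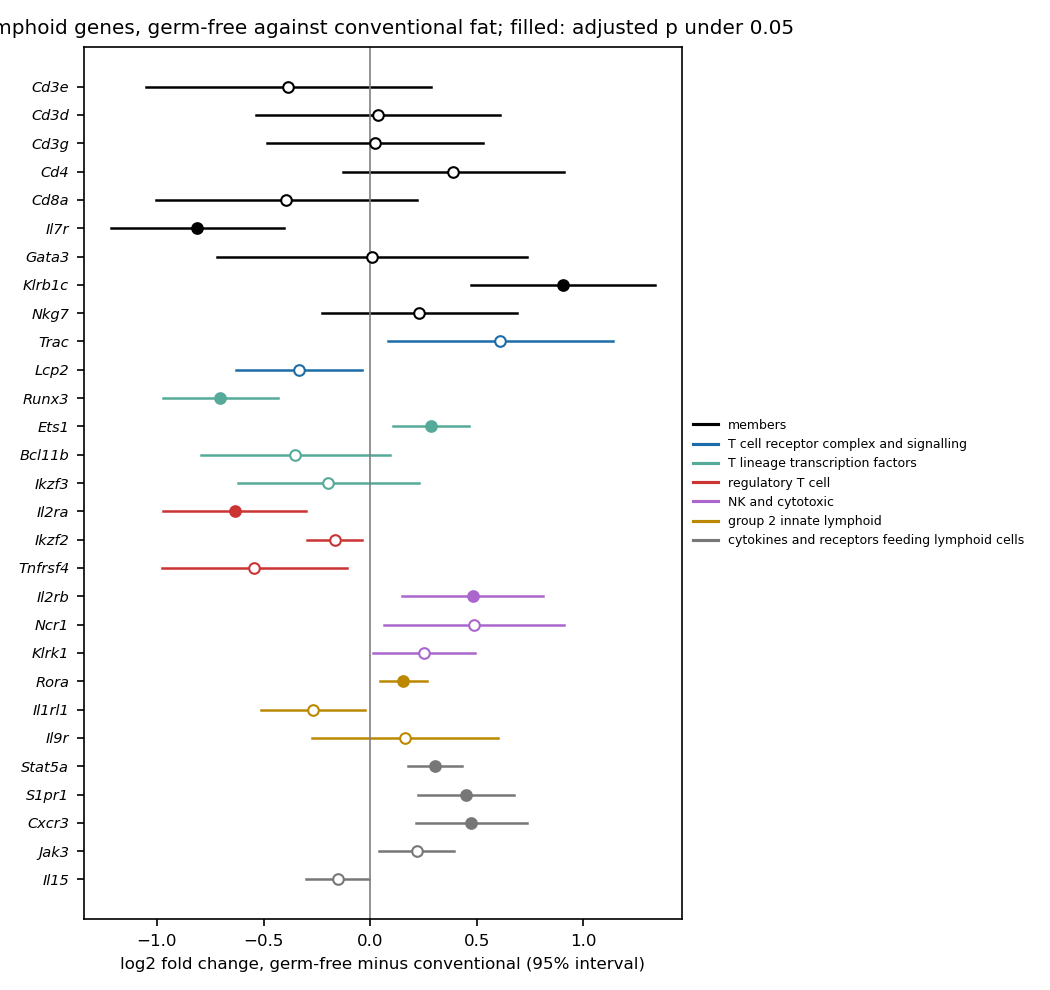
Log2 fold change, germ-free minus conventional, with its 95% interval for the 9 tested markers (black) and for genes of 6 lymphoid lists (colours). Filled dots passed an adjusted p of 0.05 over all genes tested: Il7r (-0.81) and Klrb1c (0.90) among the markers, and Runx3, Ets1, Il2ra, Il2rb, Rora, Stat5a, S1pr1 and Cxcr3 among the listed genes.

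Over the day, no marker passed the test for a 24 h rhythm in either arm. Among all genes, 0.813% passed it in conventional and 4.64% in germ-free fat. The smallest p in conventional fat belonged to Cd8a, with a fitted log2 amplitude (the height of the curve above its mean) of 0.89 and a peak at ZT 3.1 (unadjusted p 0.00493, adjusted p 0.148, edgeR). Its conventional means were 1.26 CPM at ZT02 and 0.710 CPM at ZT06, and between 0.346 and 0.417 CPM at the other times. Both conventional ZT02 libraries lay above the conventional median, at 0.923 and 1.599 CPM, while the single germ-free ZT02 library did not. In germ-free fat the smallest p belonged to Cd4, with an amplitude of 1.23 and a peak at ZT 2.5 (adjusted p 0.160), which rests on the single ZT02 library. Klrb1c in germ-free fat had an amplitude of 0.53 with a peak at ZT 20.9 (adjusted p 0.188), where both ZT22 libraries were the highest.

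The fitted peaks of the CD3 chains and of Nkg7 in conventional fat fell in the light phase, at ZT 3.0 for Cd3g, ZT 3.9 for Nkg7, ZT 4.3 for Cd3d and ZT 6.5 for Cd3e, with amplitudes of 0.34 to 0.40 and adjusted p of 0.520 or more. Il7r had a small amplitude in both arms, 0.24 and 0.32, and its germ-free means outside ZT02 lay between 1.51 and 1.67 CPM. The difference of the rhythm between the arms passed for no marker, and for 0% of all genes in edgeR (1415 genes at an unadjusted p under 0.05, and 40 genes past the adjusted threshold in DESeq2). Among the markers the smallest unadjusted p for this difference was that of Klrb1c, 0.0666 (adjusted p 0.642).

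**Figure D5:**
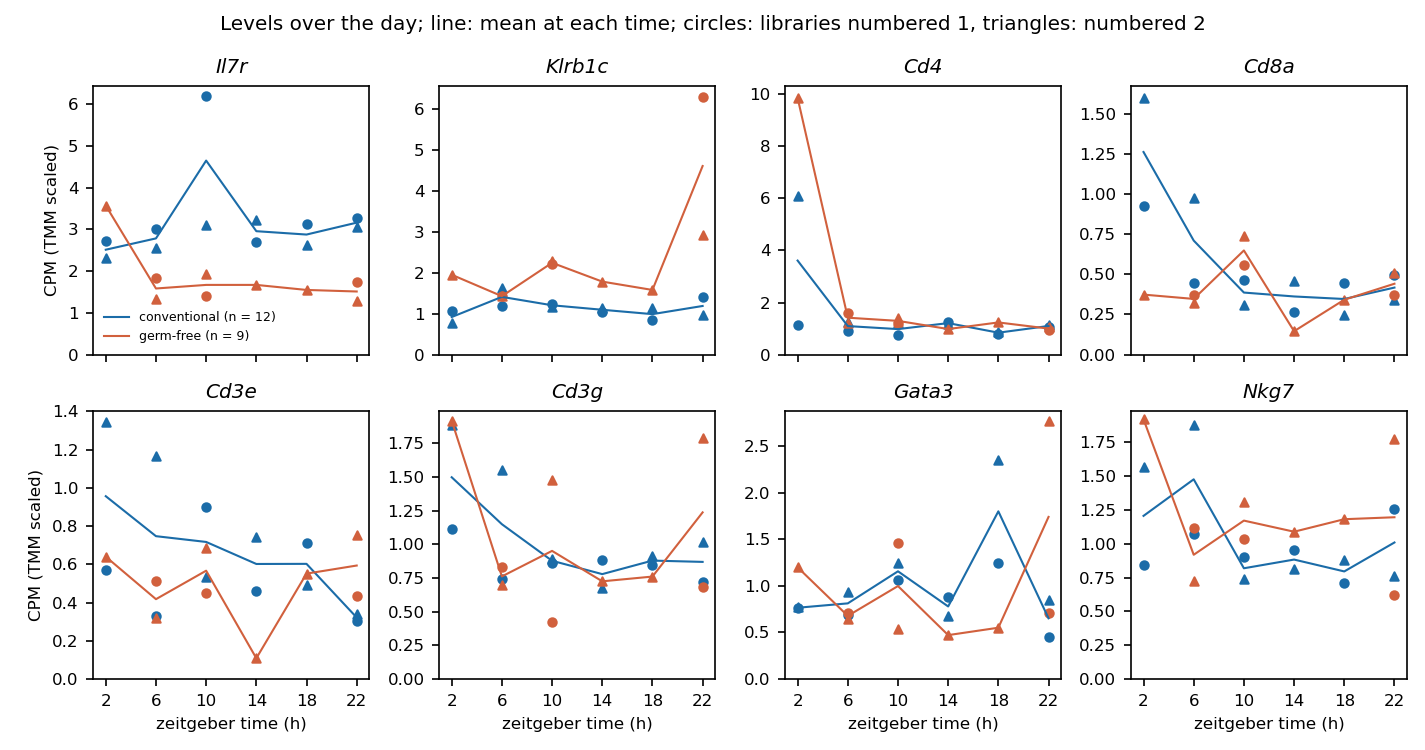
TMM-scaled CPM of 8 lymphoid markers against zeitgeber time in h, with conventional libraries in blue, germ-free in orange, circles for libraries numbered 1, triangles for those numbered 2 and a line through the mean at each time. Cd4 stands out at ZT02 in the libraries numbered 2, Cd8a is highest at ZT02 in conventional fat (mean 1.26 CPM), and Klrb1c is highest at ZT22 in germ-free fat (mean 4.60 CPM).

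From library to library, some markers were high together. Over 45 pairs of markers, log2 CPM was correlated at an adjusted permutation p under 0.05 for 7 pairs by Pearson's r, and for 2 of them by Spearman's rho as well. These 2 were Cd3d with Cd8a (r = 0.61, adjusted p 0.0242; rho = 0.75, adjusted p 0.00945, n = 21) and Foxp3 with Il7r (r = 0.74, adjusted p 0.00585; rho = 0.66, adjusted p 0.0342, n = 21). Without the 2 libraries farthest from the median of the first-named gene, r was 0.55 for Cd3d with Cd8a and 0.65 for Foxp3 with Il7r. Within the arms Cd3d with Cd8a gave r = 0.60 in conventional and 0.73 in germ-free libraries, and Foxp3 with Il7r gave 0.44 and 0.84. Germ-free ZT02 number 2 had the highest germ-free value of both Foxp3 (0.507 CPM) and Il7r (3.57 CPM). How far their relation rests on that library was not tested. The permutations ran over both arms together, although Il7r differed between the arms. Cd3d and Cd3g, the neighbours on chromosome 9, reached r = 0.36 (permutation p 0.106, adjusted p 0.350, n = 21) and rho = 0.23 (permutation p 0.307, adjusted p 0.623). Cd3g with Cd4 went from r = 0.60 (permutation p 0.00269, adjusted p 0.0242, n = 21; rho = 0.36, adjusted p 0.347) to r = 0.16 without the 2 farthest libraries, so that relation rests on those libraries.

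Summed markers of ciliated duct, of duct and basal epithelium and of B cells were set against the lymphoid markers over the libraries. The epididymis and accessory gland sum was not among them, so its relation to the lymphoid markers was not tested. Of 27 relations of the 9 tested markers with summed ciliated duct, duct epithelium or B cell markers, none had an adjusted permutation p of r under 0.05, and 2 had an unadjusted one. Klrb1c with the ciliated duct sum gave r = 0.08 (permutation p 0.742, adjusted p 0.866, n = 21) and rho = -0.22 (permutation p 0.344, adjusted p 0.847). Without the 2 libraries farthest from the median of that sum, r was -0.47. Within the arms r was -0.22 over the 12 conventional and 0.51 over the 9 germ-free libraries.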

How the data were processed

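Total RNA was disrupted with a bead mill, purified on columns, depleted of ribosomal RNA and made into stranded libraries read as paired ends of 100 bases, per the labels' protocols. The submitters' processing notes name STAR 2.4.0i and mm10. The counting tool, its settings for strand and multi-mapping reads, and its annotation: not given in the sources used here. Raw exon counts per gene were used as the authors deposited them. Counts were analysed with edgeR 4.0.16 in R 4.3.3 (filterByExpr, TMM, quasi-likelihood F test of arm with time as a 6-level factor; cosine and sine of period 24 h per arm for rhythms; Benjamini-Hochberg over 18334 genes), with DESeq2 1.42.0 as an alternative. CPM is a count over the scaled library size, and log2 CPM used a prior count of 2. Foxp3 was tested by exact permutation. Correlations used 100000 resamples, and those between pairs of markers were added after the data were seen. Depth was 24388294 to 48348181 counts; a marker had 2 to 370 reads in a library. Positions are from GENCODE M21. Coding sequences were aligned with MAFFT 7.526. Tests were checked on simulated counts. All columns of libraries were used. The markers and gene lists were chosen with earlier results of these data known. Beside all 10 markers, each lymphoid list gave up to 4 genes past the threshold and up to 2 that were not, by smallest p, and each tested marker its 3 most correlated named genes, among those whose log2 CPM averaged 0 or more. Alternatives covered scaling, filter, tool, time term, library number, ciliated duct markers, exon length and single libraries.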

Additional observations from a re-analysis of the deposited data

Results flagged for a closer look

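In each of the 10 markers the highest and the lowest of the 9 germ-free libraries were compared with the nearest other value by Dixon's gap, against a critical share of 0.493 of the range. A rate of about 1 flag in 20 groups holds only for independent values from 1 normal distribution. These CPM come from 6 times of day and the 10 markers share the same 9 libraries, so that rate does not apply. By this gap 4 of 10 markers stood out, each at the high end. The 12 conventional libraries were not compared in this way. Among them the highest and the next CPM were 6.08 and 1.26 for Cd4, and 6.19 and 3.27 for Il7r. For Gata3 they were 2.35 and 1.25, and for Klrb1c 1.62 and 1.41.

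Cd4 was 9.86 CPM in germ-free ZT02 number 2, with the next library at 1.601 CPM and a gap of 0.925 of the range. Il7r was 3.57 CPM in the same library, with the next at 1.94 CPM and a gap of 0.715. Klrb1c was 6.27 CPM in germ-free ZT22 number 1, with the next at 2.92 CPM and a gap of 0.690. Gata3 was 2.77 CPM in germ-free ZT22 number 2, with the next at 1.46 CPM and a gap of 0.571. The library that was high in Cd4 and Il7r also had the highest germ-free value of Cd3g, Foxp3 and Nkg7.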

How the results depend on the processing

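Of the 2 marker calls by arm, 2 were kept under each single-library omission, the replicate block and 9 other alternatives. The count was 0 with the exon length covariate, 1 at times with 2 libraries in each arm, 0 in libraries numbered 1, 0 in those numbered 2 and 1 with the Klrb1 family summed (chosen after seeing the data). Over all genes these calls were 615, 1712, 0 (2562 at an unadjusted p under 0.05 in edgeR) and 911 for the first 4, and 3379 to 5283 without single libraries; fewer libraries were fitted in the last 3 of these, and the cause was otherwise not tested. No uncalled marker passed in any of 245 fits. Rhythmic genes in conventional fat were 59 with the exon length covariate, 692 with a 6-level time factor, 781 in DESeq2, 247 without both germ-free ZT22 libraries (added after seeing the data) and 54 to 262 without single libraries. In germ-free fat they were 2020 in DESeq2 and 385 to 1110 without single libraries, and 1 marker, Cd4 (adjusted p 0.0370), passed without libraries high in ciliated duct markers. The rhythm difference gave 40 genes in DESeq2 and 0 to 3 without single libraries. Foxp3 was at -0.70 (exact p 0.0475) with a prior count of 0.5. Libraries with the same number deviated together at ZT06 (r = 0.50) and ZT10 (r = 0.15) but not at ZT22 (r = -0.29), so the numbers were not taken as pairs; the replicate block gave 4627 calls over all genes. At 2 to 370 reads per marker and library, small changes may have been missed, and no smallest detectable change is given here.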

Other observations

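Other cell types of the depot gave the following counts between the arms. Over all genes tested, 11.6% were lower and 15.3% higher in germ-free fat. Of 8 tested mast cell and granulocyte genes 4 fell, 1 rose and 3 did not pass, with a median log2 fold change of -0.81. The genes of these other cell types were not followed one by one under the alternative settings. Those that fell were the mast cell proteases Cpa3 (7.35 ± 2.25 to 3.79 ± 1.87 CPM), Mcpt4, Cma1 and Tpsb2, and the one that rose was Kit, the receptor for stem cell factor (10.5 ± 2.63 to 18.2 ± 5.42 CPM). Of 10 B cell genes 1 fell, the kinase gene Blk, and 9 did not pass. Of 14 ciliated duct genes none passed in either direction.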
